A study of Mus musculus with 9 samples.

Results

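Metallothionein, zinc transport and iron handling genes were followed in tumour cell lines of the mouse mammary gland that carry or lack Janus kinase 1 (JAK1). The group held the 10 genes Mt1, Mt2, Slc39a14, Slc30a1, Scara5, Tfrc, Fth1, Ftl1, Slc40a1 and Hmox1, of 24342 gene symbols in the table, and all 10 had a value above 0 in every library and passed the filter on low values (a mean of at least 1 FPKM). They were matched by symbol and chosen by measured values: the set was drawn up because Scara5 and Mt2 were lower in the Jak1 knockout libraries of lines 45555 and 47298. The differences inside those lines are therefore given as a description, with no test.

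The lines derive from tumours that the MMTV-neu transgene gave FVB/N mice. In this transgene the mouse mammary tumour virus promoter drives the neu (Erbb2) oncogene in mammary epithelium. The 4 Jak1 knockout libraries were those of lines 45555, 47298, 45566B and 46295. The 5 Jak1 wild-type libraries were those of lines 45555, 47298, 45566B, 33373 and 33377. In the 3 lines present in both states the titles call the knockout Cre and the other state Wt, and these lines were treated with puromycin. Their adherent cultures received serum together with insulin, hydrocortisone and epidermal growth factor, as did those of the other 3 lines. Each line and state had 1 library, and the labels name no separate cultures, so spreads here are between lines. Values were FPKM, fragments per transcript length and per mapped fragments. They summed to 567403 to 721751 FPKM in a library, with 10821 to 11622 genes at 1 FPKM or more, and the number of fragments behind them is unknown. The shallowest library, 46295 knockout, had 0.416 of the depth of 45566B wild type, the deepest. In genes with transcripts under 150 bases, low values of 33373 and 33377 stood on a shared fragment step in 2.65% and 5.94% of cases, against 30.3 to 46.2% in the other 6 libraries compared. At 300 to 600 bases, the class of Mt2 (511 bases) but not of the longest Mt1 transcript (1085 bases), the shares were 38.3% and 55.6% in these libraries, against 31.8 to 49.0%.

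Jak1 itself was at 74.4 FPKM in 45555 knockout against 86.7 in its wild type, at 27.5 against 63.1 in 47298, and at 14.2 against 16.1 in 45566B. It was at 22.97 FPKM in 46295 knockout, against 19.4 in 33373 and 54.6 in 33377, both wild type. Gene-level FPKM do not separate deleted from retained exons, so the labels are checked only in part. The cultures also differed in state. The summed FPKM of 8 epithelial markers was 7.34 in 45555 knockout against 7.12 in its wild type, 414 against 99.8 in 47298, and 2839 against 2761 in 45566B, and it was 2950 in 46295 knockout, 2455 in 33373 and 161 in 33377. The sum of 10 mesenchymal markers was 7223 against 7884 in 45555, 1554 against 8018 in 47298, and 89.8 against 21.4 in 45566B, and it was 28.2 in 46295 knockout, 618 in 33373 and 2720 in 33377. Epcam, an epithelial adhesion molecule, did not pass 0.581 FPKM in the libraries of 45555 and of 47298. The labels call all of them mammary tumour cell lines and name no cell type. The 8 macrophage and leukocyte markers summed to 4.04 FPKM in 45555 knockout against 4.59 in wild type, 30.6 against 24.5 in 47298 and 396 against 513 in 45566B, and to 420 in 46295 knockout, 335 in 33373 and 31.0 in 33377. Cd14 and Cd68 carried most of these sums, with Cd14 at 389 FPKM in 45566B knockout against 504 in wild type and Cd68 at 106 FPKM in 46295 knockout. Ptprc, the pan-leukocyte marker, did not pass 0.0293 FPKM in any library, and erythroid markers summed to at most 1.30 FPKM.

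Metallothioneins are small cysteine-rich proteins that bind zinc and copper. Their genes are switched on by the zinc sensor MTF1, which binds metal response elements, by glucocorticoids, and, in liver, by interleukin-6, a cytokine that signals through gp130, JAK kinases and STAT3. Zinc enters the cytosol through SLC39 importers such as Slc39a14, which also carries iron, and leaves through SLC30 exporters such as Slc30a1. Iron enters with transferrin through Tfrc or with ferritin through Scara5, is stored in ferritin shells of Fth1 and Ftl1 chains, leaves through Slc40a1 (ferroportin), and is released from heme by Hmox1. Iron regulatory proteins bind stem loops in several of these transcripts. When iron is scarce they block translation from a loop in the leader and stabilise the Tfrc transcript through loops in its tail.

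The stem loops are shown because they split the 4 iron genes that have them into those with a leader loop and the one with tail loops. Each is written 5′ to 3′ on the transcript strand, with the loop in capitals, from GENCODE vM21 transcripts of build GRCm38, which is mm10.
Fth1, 5′ UTR, chr19:9982732-9982760, plus strand: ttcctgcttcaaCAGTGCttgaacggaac
Ftl1, 5′ UTR, chr7:45459779-45459807, minus strand: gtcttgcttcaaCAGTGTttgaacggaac
Slc40a1, 5′ UTR, chr1:45925465-45925493, minus strand: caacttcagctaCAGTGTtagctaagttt
Tfrc, 3′ UTR, chr16:32631219-32631247, plus strand: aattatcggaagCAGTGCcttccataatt
Tfrc, 3′ UTR, chr16:32631598-32631626, plus strand: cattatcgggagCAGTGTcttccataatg
Tfrc, 3′ UTR, chr16:32631663-32631691, plus strand: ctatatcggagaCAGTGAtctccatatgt
Tfrc, 3′ UTR, chr16:32631710-32631738, plus strand: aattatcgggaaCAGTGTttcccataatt
The search asked for the loop CAGTGN after an unpaired C and 5 stem bases that pair with the 5 bases behind the loop, with G to T pairs allowed. It matched 4 of the 10 genes, and 294 of 21901 genes with a protein-coding transcript, or 1.34%. The match describes letters and does not show binding.

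Mt2 and Mt1 lie side by side on chromosome 8, with 5513 bases between them. Mt2 spans positions 94172664 to 94173568 and Mt1 positions 94179082 to 94180327, both on the plus strand. Their 250 bases before the RefSeq start (build GRCm38.p6) are shown because both genes have a metal response element core, TGCACNC or TGCGCNC on either strand, here in capitals.
Mt1, chr8:94178839-94179088, plus strand: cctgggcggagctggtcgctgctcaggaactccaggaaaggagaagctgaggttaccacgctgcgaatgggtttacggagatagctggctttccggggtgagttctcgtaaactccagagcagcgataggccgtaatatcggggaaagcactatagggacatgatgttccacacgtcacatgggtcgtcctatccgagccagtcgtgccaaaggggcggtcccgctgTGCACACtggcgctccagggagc
Mt2, chr8:94172368-94172617, plus strand: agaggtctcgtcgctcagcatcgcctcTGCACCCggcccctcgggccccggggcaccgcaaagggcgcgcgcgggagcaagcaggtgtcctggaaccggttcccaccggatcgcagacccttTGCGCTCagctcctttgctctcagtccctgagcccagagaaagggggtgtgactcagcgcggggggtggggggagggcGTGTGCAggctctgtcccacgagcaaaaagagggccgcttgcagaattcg
The core occurred 1 time before Mt1 and 3 times before Mt2, and of 32851 RefSeq promoters of this length 21.4% held at least 1 and 1.26% at least 3. The annotated leaders held a further 4 in Mt1 (229 bases) and 3 in Mt2 (184 bases). Slc30a1, also a known MTF1 target, had 1 before its start. Of the iron genes, Tfrc had 2, which overlap each other on opposite strands and lie in 1 of its annotated windows, and Fth1 and Ftl1 had 0. These 6 genes were the ones in the promoter table. The last bases of the Mt1 window overlap the GENCODE transcript.

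Mt1 was abundant in every library and was lower in the knockout library of all 3 lines. It had 529.4 FPKM in 45555 knockout against 1950 in wild type, 463.3 against 1414 in 47298, and 346.7 against 498.6 in 45566B. The remaining libraries had 798.6 FPKM in 46295 knockout, 751.4 in 33373 and 2627 in 33377. Wild type exceeded knockout 3.68-fold, 3.05-fold and 1.44-fold in the lines. The mean difference was -1.34 ± 0.72 on the log2(FPKM + 1) scale (SD, n = 3 lines). Across all lines the states overlapped, since 46295 knockout stood above 33373 and 45566B wild type.

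Mt2, the other widely expressed metallothionein, had 547.2 FPKM in 45555 knockout against 2311 in wild type and 223.4 against 1648 in 47298. In 45566B it was almost absent in both states, with 0.209 FPKM in knockout against 0.138 in wild type, and 46295 knockout had 18.3 FPKM. The wild-type lines 33373 and 33377 had 298.1 and 1823 FPKM. The highest library exceeded the lowest 16716-fold, and only 0.131% of the 12198 genes averaging 1 FPKM or more had as wide a log2 range (10.99, against a median of 1.50). Mt1 ran 7.58-fold from lowest to highest over the same libraries.

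The neighbours thus kept similar levels in some lines and not in others. The level of Mt2 over that of Mt1, both per length, was 1.03 in 45555 knockout against 1.19 in wild type, and 0.482 against 1.17 in 47298. It was 0.000603 in 45566B knockout against 0.000277 in wild type, 0.0229 in 46295 knockout, 0.397 in 33373 and 0.694 in 33377. Low ratios went with high epithelial and low mesenchymal marker sums in 45566B and 46295, while 33373, with an epithelial sum of 2455 FPKM, kept Mt2 at 298.1 FPKM. The part of culture state in this pattern was not tested. In bulk RNA, fewer cells of a type and less RNA per cell cannot be told apart. None of the 462 windows of 50 bases in the Mt2 transcript occurs in that of Mt1. Mt3, a metallothionein known from brain and named here after its values were seen, had 257.8 FPKM in 46295 knockout, 4.08 FPKM in 45566B knockout against 11.6 in wild type, and at most 3.59 FPKM elsewhere. Mt4 did not pass 2.19 FPKM.

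**Figure D1:**
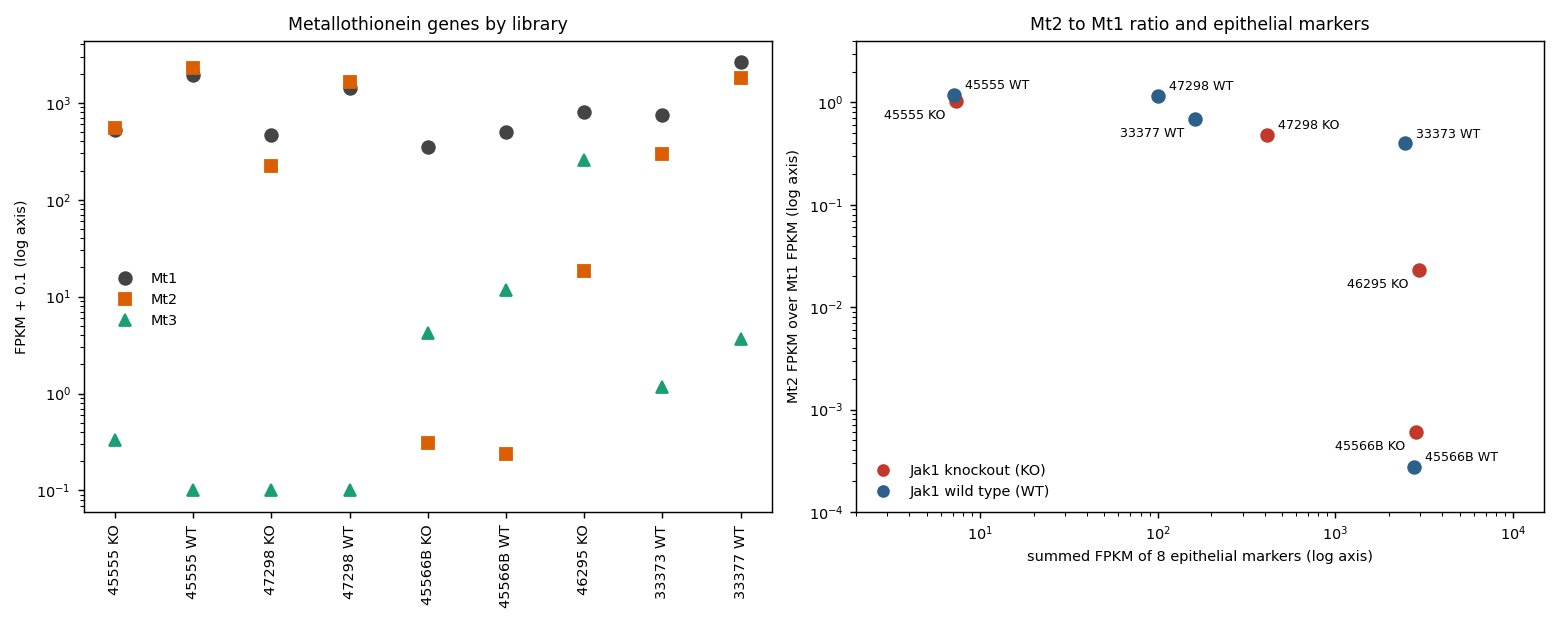
Left, FPKM + 0.1 of Mt1, Mt2 and Mt3 on a log axis in the 9 libraries. Right, the Mt2 to Mt1 ratio against the summed FPKM of 8 epithelial markers, both on log axes, with 1 point per library (knockout red, wild type blue). Mt1 stays between 346.7 and 2627 FPKM, while Mt2 drops to 0.209 and 0.138 FPKM in 45566B knockout and wild type, far below the other 7 libraries.

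The genes whose log2(FPKM + 1) followed Mt2 most closely over the 9 libraries were Lrp1 (Pearson r = 0.989), a large endocytic receptor, Postn (0.985), a matrix protein of fibroblasts, Ghr (0.983), the growth hormone receptor, Obsl1 (0.977) and Apba3 (0.975). These values describe 9 libraries from 6 lines, 3 of which gave 2 libraries, and the search covered 11285 genes. Postn had 1.69 FPKM in 45566B knockout against 0.753 in wild type, and 768 against 1157 in 45555. Within the group, r with Mt2 was highest for Ftl1 (0.904) and Hmox1 (0.887) and lowest for Slc40a1 (-0.950). It was 0.76 for Fth1, 0.73 for Mt1, 0.61 for Slc39a14, -0.41 for Slc30a1, -0.42 for Scara5 and -0.74 for Tfrc. These r include both libraries of 45566B, with Mt2 at 0.209 and 0.138 FPKM. Inside 45555, Mt2 differed by -2.08 but Ftl1 by 0.49 and Hmox1 by 0.47 (log2). In 47298 Mt2 (-2.88), Ftl1 (-0.82) and Hmox1 (-1.34) were lower together.

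Slc39a14 was the 1 gene of the 10 that was higher in the knockout library of all 3 lines, where 14.3% of 12063 genes were. It had 24.9 FPKM in 45555 knockout against 22.9 in wild type, 54.4 against 35.3 in 47298, and 20.4 against 14.4 in 45566B. The mean difference was 0.40 ± 0.25 on the log2(FPKM + 1) scale (SD, n = 3 lines). Outside these lines the order turned, with 10.6 FPKM in 46295 knockout, the lowest of all, against 61.2 in 33373 and 73.0 in 33377. Slc30a1, the plasma membrane zinc exporter, was low throughout, from 1.12 FPKM in 46295 knockout to 4.50 in 45566B wild type, and it differed by 0.24, 0.06 and -0.10 in 45555, 47298 and 45566B. Mtf1 had 4.01 FPKM in 45555 knockout against 3.68 in wild type, 1.71 against 3.04 in 47298, and 1.89 against 1.87 in 45566B. On the log2(FPKM + 1) scale Mtf1 differed by 0.10, -0.57 and 0.01 in these lines, so its levels were close in 45555 and 45566B. The part of MTF1 in the level of Mt1 was not tested.

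Of the other zinc genes, Slc39a1, a plasma membrane importer, was lower in the knockout library of all 3 lines, with 54.5 against 87.2 FPKM in 45555, 115 against 142 in 47298 and 68.1 against 76.6 in 45566B. Among the 11 SLC39 genes expressed, 4 were lower and 1, Slc39a14, was higher in all 3 lines, where 13.3% and 14.3% of all genes were. The 4 include Slc39a8, which was near 0 in 45566B, at 0.0116 FPKM in knockout against 0.0230 in wild type. They also include Slc39a3, which differed by only -0.076 in 45555 (log2). None of the 6 SLC30 genes kept 1 direction. Slc39a4, an importer of gut epithelium named after its values were seen, had 408 FPKM in 45566B knockout against 594 in wild type, 119 in 46295 knockout and 31.3 in 33373, and at most 0.198 FPKM in the other 5 libraries. The lines with little or no Mt2 thus held the most Slc39a4.

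Scara5, the receptor for ferritin light chain (chromosome 14, 65666403 to 65764826, plus strand), had the largest difference of the 10 in 45555, with 1.34 FPKM in knockout against 18.7 in wild type. In 47298 it had 12.2 FPKM against 85.7. In 45566B the levels were close, at 108.9 against 121.9 FPKM, and the other lines had 38.8 FPKM in 46295 knockout, 141.9 in 33373 and 43.2 in 33377. Wild type exceeded knockout 13.9-fold, 7.05-fold and 1.12-fold in the 3 lines. The lowest levels were in the knockout libraries of 45555 and 47298, and the other knockout libraries overlapped wild type. The genes with the closest pattern were Zfyve1 (Pearson r = 0.954), Auts2 (0.945), Slc37a3 (0.941), Atp7a (0.915), a copper exporter, and Atp6v0a1 (0.912), a subunit of the vacuolar proton pump. Its r with Mt2 was -0.42, so the pair that prompted the set did not run together over the 9 libraries.

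Tfrc, the transferrin receptor, was higher in knockout in 45555 and 47298 and lower in 45566B. It had 23.7 FPKM in 45555 knockout against 15.5 in wild type, 17.2 against 8.55 in 47298, and 89.6 against 160.4 in 45566B. The other lines had 22.1 FPKM in 46295 knockout, 61.5 in 33373 and 43.2 in 33377. Both libraries of 45566B stood above all others, in knockout and in wild type. The differences were 0.59, 0.93 and -0.83 on the log2(FPKM + 1) scale.

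Fth1, the ferritin heavy chain with the ferroxidase centre, was lower in the knockout library of all 3 lines. It had 2384 FPKM in 45555 knockout against 4459 in wild type, 2967 against 7574 in 47298, and 1465 against 1680 in 45566B. The other lines had 2273 FPKM in 46295 knockout, 9635 in 33373 and 16146 in 33377. All 4 knockout libraries lay between 1465 and 2967 FPKM, and of the wild-type libraries only 45566B fell within that range. The mean difference over lines was -0.82 ± 0.58 (log2, SD, n = 3 lines).

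Ftl1, the light chain, was lower in knockout together with the heavy chain in 47298, but not in 45555 or 45566B. It had 4508 FPKM in 45555 knockout against 3204 in wild type, 1502 against 2651 in 47298, and 710.8 against 650.4 in 45566B, with 1020 in 46295 knockout, 1339 in 33373 and 3083 in 33377. The light to heavy chain ratio was higher in the knockout library of each line, at 1.89 against 0.719 in 45555, 0.506 against 0.350 in 47298 and 0.485 against 0.387 in 45566B. It was 0.449 in 46295 knockout, 0.139 in 33373 and 0.191 in 33377. Only 45555 wild type among wild-type libraries exceeded any knockout library. Processed ferritin pseudogenes of near-identical sequence exist, and reads from them could have been counted with Fth1 or Ftl1, so ferritin levels are uncertain to that extent.

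The level of Tfrc over that of Fth1, transcripts with tail loops and a leader loop, was 0.00996 in 45555 knockout against 0.00347 in wild type and 0.00580 against 0.00113 in 47298. In 45566B it was 0.0612 against 0.0955. Knockout over wild type was thus 2.87, 5.13 and 0.640. Aco1, which encodes IRP1, had 24.2 against 33.7 FPKM in 45555, 11.9 against 22.9 in 47298 and 31.5 against 32.2 in 45566B. Ireb2, which encodes IRP2, had 20.8 against 19.0, 15.8 against 18.1 and 27.2 against 31.7 FPKM in the same order. Ncoa4, the cargo receptor that delivers ferritin to lysosomes, had 36.1 against 38.4, 55.0 against 37.6 and 23.6 against 17.8 FPKM.

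**Figure D2:**
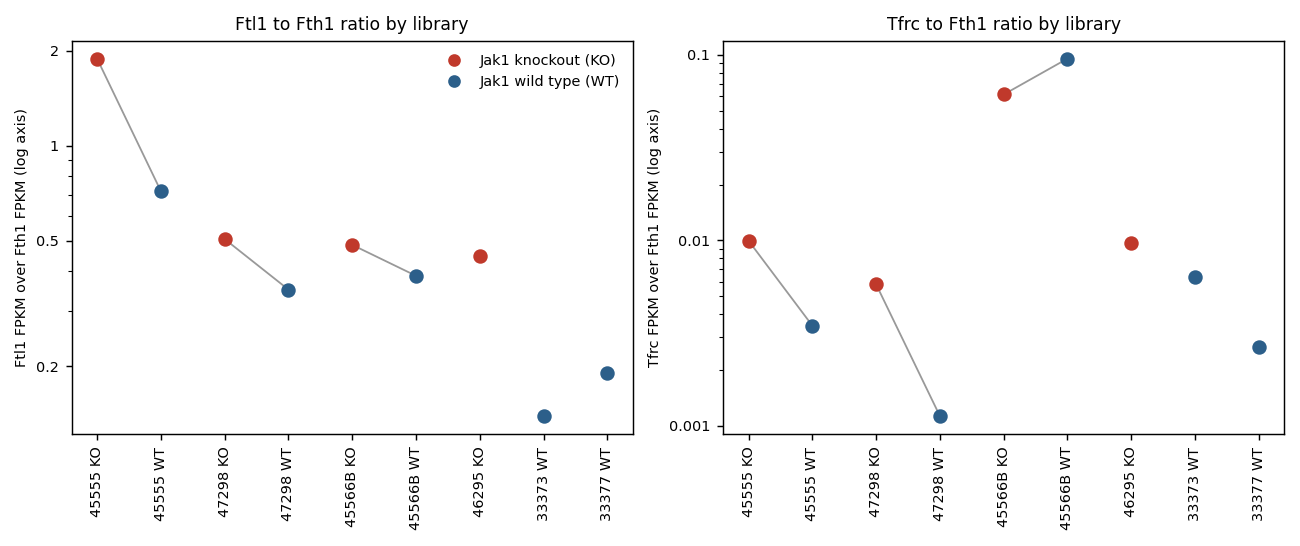
Ratios of FPKM of Ftl1 to Fth1 (left) and of Tfrc to Fth1 (right) in the 9 libraries, on log axes, with grey lines joining knockout (red) and wild type (blue) of a line. The Ftl1 to Fth1 ratio is higher in the knockout library of each joined line, and the Tfrc to Fth1 ratio is higher in 45555 and 47298 and lower in 45566B.

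Slc40a1, the iron exporter ferroportin, was at 3.14 FPKM in 45555 knockout against 2.33 in wild type and at 3.34 against 0.329 in 47298. In 45566B it was at 21.6 FPKM against 54.1, and it was at 12.96 FPKM in 46295 knockout, 4.15 in 33373 and 0.410 in 33377. The highest levels were in 45566B and 46295, where Mt2 was lowest. Its difference was 0.32 in 45555, 1.71 in 47298 and -1.29 in 45566B on the log2(FPKM + 1) scale, and whether the lines differ was not tested.

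The secreted iron carriers differed by line on a wider scale. Trf (transferrin) had 0.350 FPKM in 45555 knockout against 0.517 in wild type, 22.4 against 4.11 in 47298, 549 against 840 in 45566B, and 1004 in 46295 knockout. Lcn2, which binds siderophores that carry iron, had 15.7 against 13.6 FPKM, 816 against 369 and 19954 against 28691 in the lines, and 13657 in 46295 knockout. Both were lower in the knockout library of 45566B and higher in that of 47298. Cp (ceruloplasmin), a ferroxidase, had 13.7 FPKM in 45555 knockout against 87.2 in wild type, but 1075 against 147 in 47298 and 358 against 402 in 45566B. Steap4, a metalloreductase, had 0.0401 against 2.86 FPKM in 45555, 29.0 against 26.2 in 47298 and 17.5 against 20.2 in 45566B. Of the 20 expressed genes of iron uptake, storage and export, 2 were lower and 2 higher in all 3 lines, shares no larger than those of all genes (13.3% and 14.3%).

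Hmox1, heme oxygenase 1, had 101.8 FPKM in 45555 knockout against 73.0 in wild type, 34.8 against 89.7 in 47298, and 17.2 against 18.4 in 45566B. The other lines had 19.2 FPKM in 46295 knockout, 53.3 in 33373 and 49.99 in 33377. The directions were thus mixed, and the 3 lowest libraries were those of 45566B and 46295. Of the 15 heme genes, 3 were lower and 3 higher in all 3 lines, near the shares of all genes (13.3% and 14.3%). Hmox2, the constitutive enzyme, had 32.2 against 46.9, 31.1 against 38.2 and 33.2 against 35.9 FPKM. Bach1, a repressor of Hmox1, had 7.62 against 8.56, 8.49 against 14.1 and 19.2 against 19.5 FPKM.

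Genes of the NRF2 antioxidant programme, which also drives Hmox1, Fth1 and Ftl1, were high in 45555 knockout. Of 12 such genes, 7 were higher by at least 1 on the log2 scale in that line, as were 3.2% of all genes. There the median difference was 1.42, against 0.10 in 47298 and 0.10 in 45566B. Nqo1, a quinone reductase, had 205 FPKM in 45555 knockout against 66.0 in wild type, 13.8 against 18.3 in 47298 and 39.7 against 16.5 in 45566B. Gclm, a subunit of the glutathione-making ligase, had 127 against 28.6, 12.4 against 16.9 and 40.3 against 32.1 FPKM. Nfe2l2, the NRF2 gene, had 67.4 against 67.0 FPKM in 45555, and it was counted among the 12, as was Keap1. The library with the highest Ftl1 and Hmox1 was also the one with the highest Nqo1 and Gclm. Fth1 was lower there, at 2384 FPKM against 4459 in wild type. The part of the NRF2 programme in these levels was not tested.

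Counted over the 10 genes, 3 were lower in the knockout library of all 3 lines (Mt1, Scara5 and Fth1), and of 12063 genes 13.3% were. In 45555 and 47298 alone, 4 were lower in both, as were 29.6% of all genes, and 4 were higher in both, as were 26.6%. Lower by at least 1 in both were Mt1, Mt2 and Scara5, against 2.5% of all genes. Because 45555 and 47298 chose the set, nothing is read from any count in this paragraph that uses either line. In 45555, 3 of the 10 genes were lower by at least 1, as were 6.68% of all genes, and 0 were higher by as much, as were 3.2%. In 47298, 5 were lower by at least 1, as were 11.0% of all genes, and 1 (Slc40a1) was higher, as were 8.49%. In 45566B, the line not named in the choice, 1 gene (Slc40a1) was lower by at least 1, as were 2.17% of all genes, and 0 were higher, as were 0.854%. By any amount, 4 of the 10 were lower in 45555 (53.0% of all genes), 6 in 47298 (48.4%) and 7 in 45566B (46.4%). Among the 10903 genes that reached the filter in both sets of lines, 13.1% were lower in all 3 knockout libraries.

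Genes downstream of JAK1 and STAT3 were lower in the knockout libraries of 45555 and 47298. Of 9 such genes expressed, 8 were lower by at least 1 in 45555 knockout, 6 in 47298 knockout and 0 in 45566B knockout, where 6.68%, 11.0% and 2.17% of all genes were. Their median differences were -1.76, -1.47 and 0.22. Socs3, the feedback inhibitor, had 4.55 FPKM in 45555 knockout against 10.4 in wild type, 2.37 against 24.1 in 47298 and 0.496 against 0.280 in 45566B. Cebpd, a transcription factor of the acute phase, had 3.95 against 39.2, 3.34 against 58.1 and 12.1 against 8.90 FPKM. Mesenchymal markers also differed between the states. Of 9 expressed, 8 were lower in 45555 knockout, 8 in 47298 knockout and 4 in 45566B knockout. The shares of all genes lower were 53.0%, 48.4% and 46.4%, and the medians of the markers were -0.64, -4.00 and 0.00. In 45566B only 1 of the 10 listed markers reached 1 FPKM, so its count and median rest on values near 0. That marker was Vim, at 88.5 FPKM in 45566B knockout against 20.2 in wild type. The part of these markers in the differences of the metal genes was not tested.

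**Figure D3:**
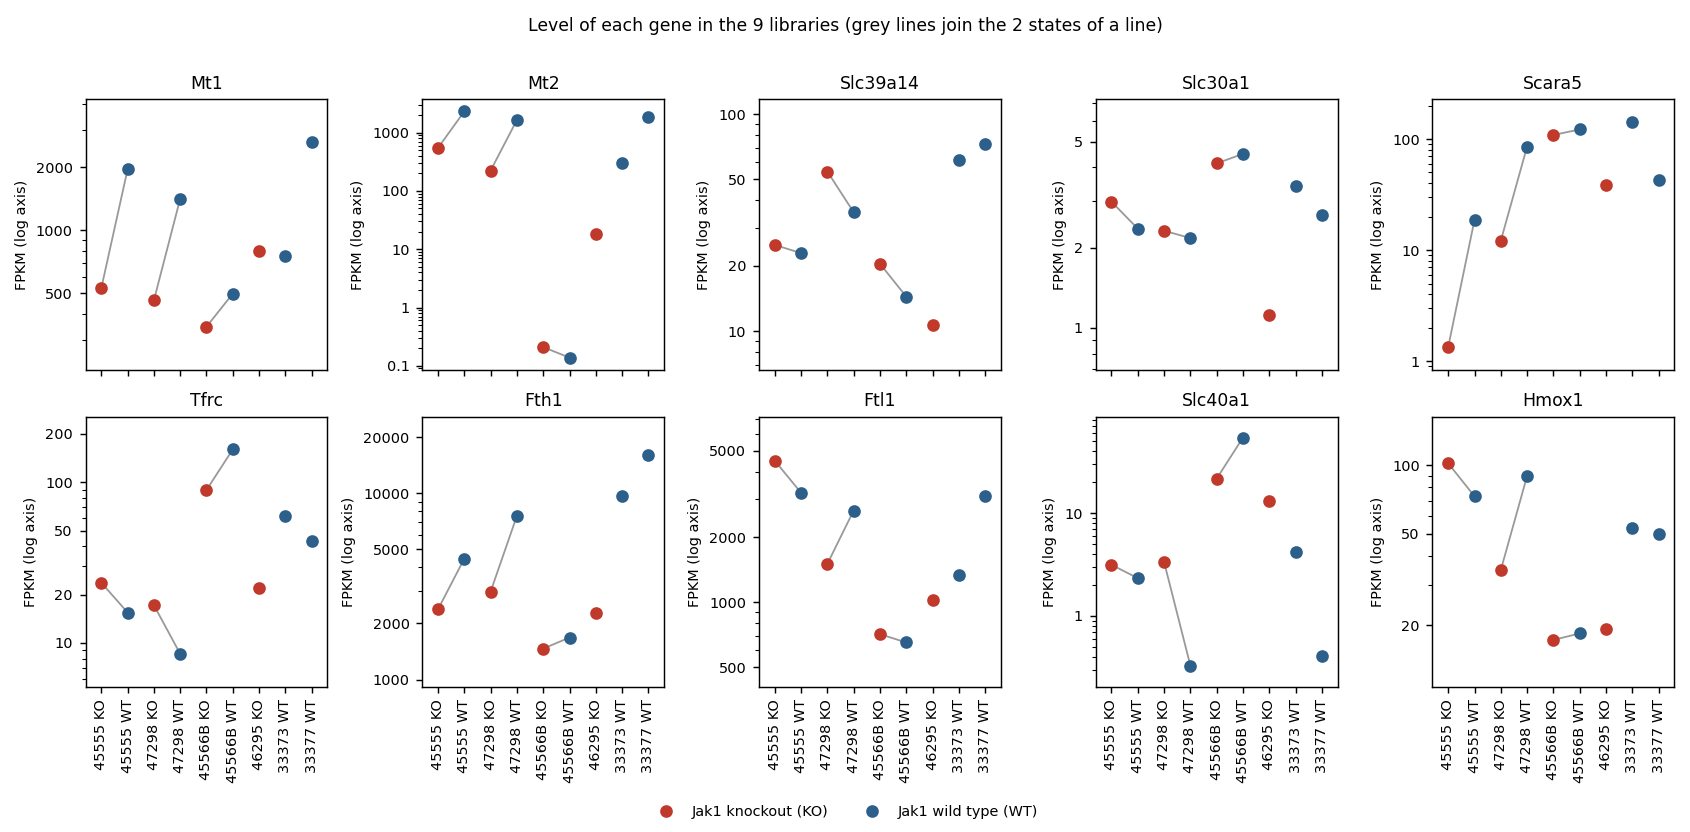
FPKM of the 10 genes on log axes (1 panel per gene, axes differ) in the 9 libraries, knockout red and wild type blue, with grey lines joining the states of a line. Mt1, Scara5 and Fth1 slope up to wild type in all 3 joined lines, Slc39a14 slopes down, and Mt2 is near 0 in both libraries of 45566B.

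**Figure D4:**
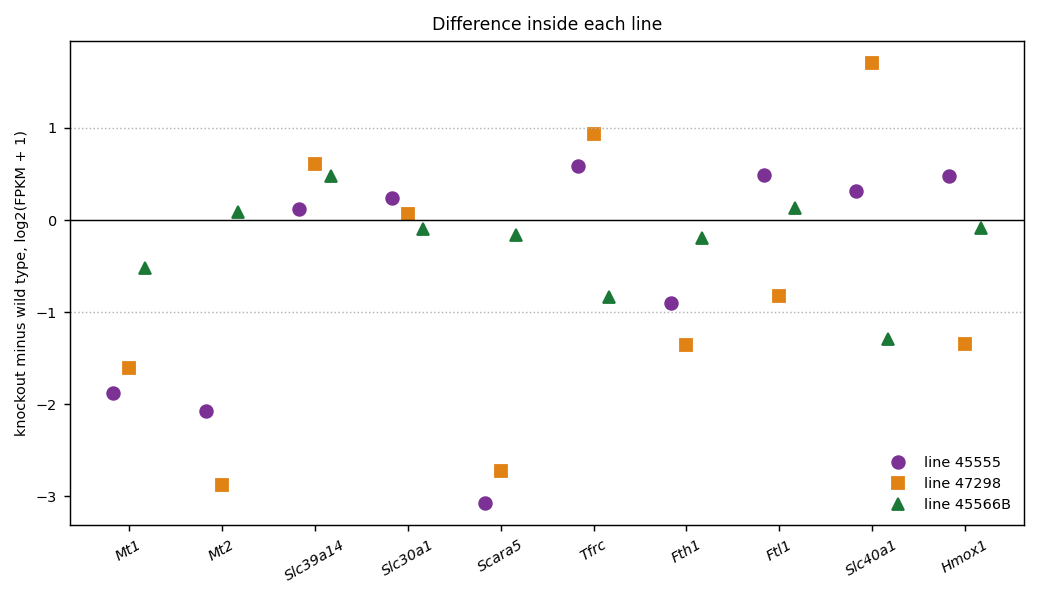
Knockout minus wild type on the log2(FPKM + 1) scale for the 10 genes in lines 45555 (circles), 47298 (squares) and 45566B (triangles). Dotted lines mark differences of 1. Mt1, Mt2 and Scara5 lie below -1 in 45555 and 47298 and above -1 in 45566B.

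A further comparison asked whether the genes differed by Jak1 state among the other lines, in which 45566B and 46295 knockout were set against 45566B, 33373 and 33377 wild type. Puromycin had been used on 1 of these 2 knockout libraries and on 1 of the 3 wild-type libraries, in each case 45566B. Of 11838 genes tested with limma, 0 (0.0%) passed an adjusted p of 0.05, and the smallest adjusted p was 0.0749. At an unadjusted p under 0.05, 157 genes (1.33%) were lower and 58 (0.49%) higher in knockout. No gene of the 10 was among either. On average 9 of the 10 were lower in knockout, where 47.7% of all genes were, with a median of -0.83 against 0.02 over all genes. None of the 10 had knockout libraries that all lay below, or all above, the wild-type libraries, as 6.43% and 7.67% of all genes had.

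Fth1 averaged 1869 ± 571 FPKM in knockout (SD, n = 2) and 9154 ± 7245 in wild type (SD, n = 3), which is a difference of -1.81 on the log2 scale (SE 1.01, limma adjusted p = 0.999). Mt2 differed by -4.14 (log2, SE 3.38), with a 95% interval from -12.8 to 4.48 (limma adjusted p = 0.999). Intervals of that width include both no change and large changes. Slc39a14 differed by -1.39 (SE 0.78), although it was higher in knockout within lines, and Hmox1 by -0.98 (SE 0.52, limma adjusted p = 0.999 for both). Mt1 differed by -0.92, Scara5 by -0.48, Tfrc by -0.74, Ftl1 by -0.71, Slc30a1 by -0.44 and Slc40a1 by 1.27, with SEs from 0.49 to 1.56. Several of these values rest on the wild-type lines 33373 and 33377. Without both, Fth1 differed by 0.12, Mt1 by 0.08, Mt2 by 2.08, Slc39a14 by 0.04, Ftl1 by 0.39 and Slc40a1 by -1.63, and the median of the 10 was 0.01. Hmox1 then differed by -0.015, while Tfrc (-1.82), Scara5 (-0.89) and Slc30a1 (-0.74) were further below 0 than with all 5 libraries.

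**Figure D5:**
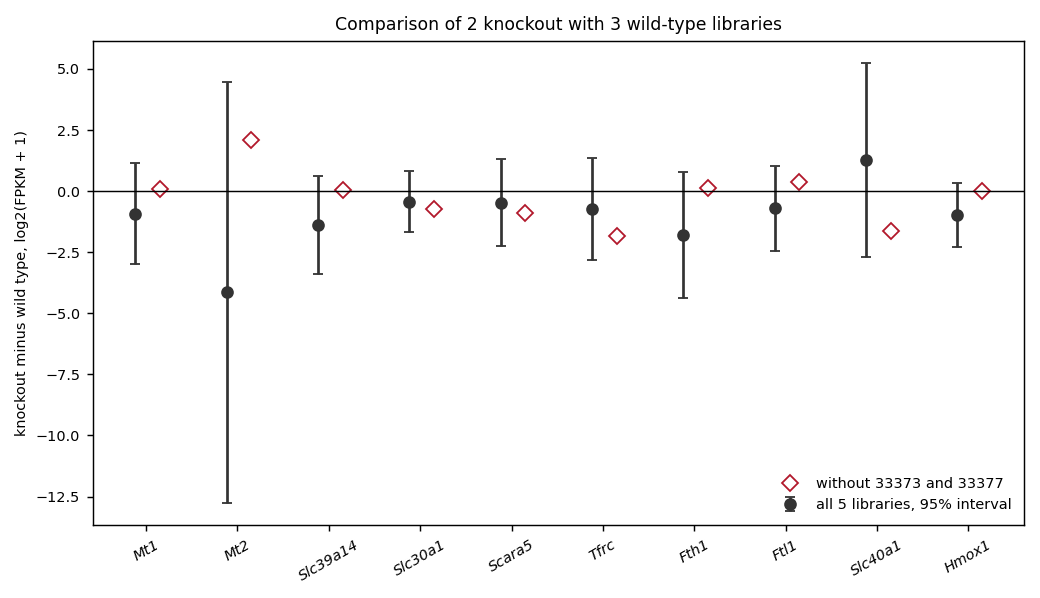
Log2 fold change of the 10 genes between 2 knockout (45566B, 46295) and 3 wild-type libraries (45566B, 33373, 33377), with 95% intervals from limma (filled circles). Open diamonds give the value without 33373 and 33377. All 10 intervals include 0, and 6 genes lie on the other side of 0 without the 2 wild-type lines.

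In the same comparison none of the wider lists held a gene with an unadjusted p under 0.05. Of 11 SLC39 importers, 9 were lower and 2 higher in knockout on average, with a median of -0.34. Of 6 SLC30 exporters, 5 were lower and 1 higher (median -0.18), and of 20 genes of iron uptake, storage and export, 16 were lower and 4 higher (median -0.47), where 47.7% of all genes were lower. The 12 genes of the NRF2 programme had a median of 0.14 and the 15 heme genes one of -0.01. Of 10 genes downstream of JAK1 and STAT3, 9 were lower and 1 higher (median -0.77). Epithelial markers were higher in knockout for 7 of 7 (median 1.90) and mesenchymal markers lower for 8 of 8 (median -2.56). The part of these markers, and of the genes downstream of JAK1 and STAT3, in the lower values of the metal genes was not tested.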

How the data were processed

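RNA sequencing of 9 libraries was analysed from the deposited table of FPKM. Per the submitters' processing notes, the authors used build mm10 and the tools Cuffnorm, Cufflinks 2.2, TopHat2 2.1 and cutadapt. Oligo-dT primed the first strand of the TruSeq libraries, per the labels' protocols. The sources used here give no strandedness, annotation or scaling option, and overlapping genes cannot be told apart. FPKM give no counts, so depth is relative only and no count test was run. In 27 names a spreadsheet had written a date, and 4 such rows were left out.

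Groups were the labelled Jak1 states. Genes averaging 1 FPKM or more were compared on log2(FPKM + 1), which understates changes of low genes. The comparison of 45566B and 46295 knockout with 45566B, 33373 and 33377 wild type was tested with limma 3.58.1 in R 4.3.3 (variance trend, two-sided, Benjamini-Hochberg over all genes), after a check on simulated data. In that check, 10.4% of genes shifted by 2 on the log2 scale and 57.8% of those shifted by 4 were called. Most changes of 2 would thus be missed, and a gene not called may still differ. The simulated noise was independent between libraries and held no line effect. The shares called may therefore not hold for genes that vary widely between lines, such as Mt2. P-values measure only the spread between libraries. Inside lines, differences were described. The libraries of a line deviated together (correlations of 0.700, 0.399 and 0.804 in 45555, 47298 and 45566B); they are paired because their titles name the same line.

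The 10 genes, the lists and the rule for further named genes (a written list, and the 5 closest patterns to Mt2 and to Scara5) were chosen with earlier results of these data known. Alternatives were other pseudocounts, filters and scalings, no variance trend, all 9 libraries with and without the line as a block, and leaving out libraries or lines. The difference of at least 1 in both 45555 and 47298 was chosen after seeing the data. Sequences are from RefSeq and GENCODE.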

Additional observations from a re-analysis of the deposited data

Results flagged for a closer look

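Among the 5 wild-type libraries, Mt2 in 45566B stood apart at 0.138 FPKM on the log scale, with a gap of 0.732 of the whole range to the next library. Such a gap arises by chance in about 1 in 20 groups. Knockout and wild-type libraries were searched for each of the 10 genes, so this gap among the wild-type libraries could arise by chance alone. The knockout library of the same line was also low in Mt2, at 0.209 FPKM. Tfrc differed by 0.59 in 45555 and 0.93 in 47298 but by -0.83 in 45566B, and Slc40a1 by 1.71 in 47298 but by -1.29 in 45566B (knockout minus wild type, log2). With 1 library per line and state, the difference between lines was not tested.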

How the results depend on the processing

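The alternatives gave 149 values of the 10 genes, and 12 changed sign. Most values came from fits to libraries of the comparison of 2 knockout with 3 wild-type libraries. The others came from fits to all 9 libraries, which include the lines that chose the set, so no test is read from them. In fits of the smaller comparison with at least 2 libraries per state, none of the 10 genes passed the adjusted threshold. The smallest adjusted p there (limma) was 0.217, for Fth1 without 45566B wild type. With a pseudocount of 0.1, 4 genes were called over the whole table, none of them among the 10, and the cause was not tested. Without 33373 and 33377 the sign turned for Mt1 (0.078), Mt2 (2.08), Slc39a14 (0.035), Fth1 (0.12), Ftl1 (0.39) and Slc40a1 (-1.63). Over all 9 libraries with the line as a replicate block the sign turned for Slc39a14 (0.40), Slc30a1 (0.070) and Tfrc (0.23), given as a description only. A block inside the smaller comparison was not possible, since 5 libraries from 4 lines leave no residual degrees of freedom. Leaving out 1 library at a time gave 0 to 0 calls, ranges of -1.08 to 0.21 for Slc30a1, -1.21 to 0.26 for Scara5 and -1.73 to 0.25 for Tfrc, each positive only without 46295 knockout. It gave -1.52 to -0.22 for Mt1, -7.26 to -1.94 for Mt2, -2.77 to -1.14 for Fth1, -1.25 to -0.13 for Ftl1 and 0.077 to 2.72 for Slc40a1, each nearest 0 without 33377. Inside lines, 3 genes were lower in all 3 knockout libraries and 0 were lower by at least 1 in all 3. Leaving out 1 line gave 3 to 4. Without 1 line the mean difference changed sign for Slc30a1 (-0.017 to 0.15), Tfrc (-0.12 to 0.76), Ftl1 (-0.35 to 0.31), Slc40a1 (-0.49 to 1.01) and Hmox1 (-0.71 to 0.19). Depth is known only in relative terms, which limits what can be said of Mt2 in 45566B. In these terms 45566B wild type was the deepest library and 45566B knockout had 0.661 of its depth. 45555 wild type, with Mt2 at 2311 FPKM, had 0.464.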
